A study of Mus musculus with 2 samples.

Results

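Imprinted genes are expressed mainly from the allele inherited from a given parent, and 34 of them were examined here for binding of Suz12 in mouse embryonic stem cells made to differentiate. They were chosen by name as imprinted genes, with earlier results of these data known, and they belong to 16 imprinted domains. They are 34 of the 21631 protein-coding genes that RefSeq places on chromosomes 1 to 19 and X of build GRCm38. A member counts as holding Suz12 when a peak overlaps the gene or lies at most 2.5 kb outside it. This held for 11 members in 7 domains, through 14 of the 3373 peaks in the list.

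Suz12 belongs to the core of Polycomb Repressive Complex 2 (PRC2), an enzyme complex that methylates histone H3 at a lysine and helps to keep developmental genes silent. Most imprinted genes lie in clusters, typically governed by a control region that is DNA-methylated on the allele of a single parent, and many of them set fetal and placental growth. Some clusters also rely on a long non-coding RNA made from the unmethylated allele, such as Kcnq1ot1 and Airn. PRC2 is best known for binding unmethylated CpG islands, stretches dense in the dinucleotide CG that often hold promoters, and the series by its title concerns the recruitment of PRC2 to them.

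The wild-type library, named replicate 1, comes from cells of E14, a single embryonic stem cell line, grown in serum medium for 72 h with all-trans-retinoic acid at 1 µM, after withdrawal of leukemia inhibitory factor (LIF), a cytokine that keeps such cells undifferentiated. The second library of the series comes from Suz12 knockout (Suz12-/-) cells at 0 h, also in serum medium and with the same antibody against Suz12 (D39F6), and was not analysed here. Genotype and time differ together between them and each group has 1 library, so there is no replicate error, no test between groups and no p-value. The list holds peaks only, so the identity of the cells could not be checked against marker genes. A peak gives neither the share of cells that carry Suz12 nor the parental allele that carries it, and these cannot be told apart.

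Each peak has a score deposited by the authors, on a scale that the file does not state, running in the list from 150.3 to 3233 with a median of 572. It is used here to describe and rank peaks only. The value 3100 is shared by 325 peaks, so peaks at 3100 are not ranked among themselves. Reads per peak are not in the list, so the depth is unknown, and members without a peak may carry Suz12 too weakly to have been called.

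The promoter windows of 6 members with a peak over the window, those with the highest-scoring peaks, are shown first, since they are the stretches on which Suz12 was found. Windows of 2 members with no peak, those with the most CpG among such members, follow for contrast. Each runs 5′ to 3′ over the 300 bases from 250 before to 50 after a RefSeq transcript start (build GRCm38.p6), and capitals mark every CG, which reads the same on both strands.
Grb10 promoter, chr11:12037371-12037670, minus strand: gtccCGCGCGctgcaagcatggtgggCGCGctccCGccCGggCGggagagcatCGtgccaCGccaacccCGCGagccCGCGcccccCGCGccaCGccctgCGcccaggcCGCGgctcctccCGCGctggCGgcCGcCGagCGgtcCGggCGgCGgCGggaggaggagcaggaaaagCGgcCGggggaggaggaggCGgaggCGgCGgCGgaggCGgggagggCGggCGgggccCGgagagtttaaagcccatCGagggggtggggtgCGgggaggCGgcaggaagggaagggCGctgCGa
Rasgrf1 promoter, chr9:89909525-89909824, plus strand: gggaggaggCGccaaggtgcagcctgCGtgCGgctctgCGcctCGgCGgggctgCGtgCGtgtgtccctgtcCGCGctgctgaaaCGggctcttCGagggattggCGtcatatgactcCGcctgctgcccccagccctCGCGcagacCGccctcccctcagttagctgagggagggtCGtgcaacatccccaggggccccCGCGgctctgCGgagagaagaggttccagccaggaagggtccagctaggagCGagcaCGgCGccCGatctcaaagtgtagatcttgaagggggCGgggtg
Dio3 promoter, chr12:110278980-110279279, plus strand: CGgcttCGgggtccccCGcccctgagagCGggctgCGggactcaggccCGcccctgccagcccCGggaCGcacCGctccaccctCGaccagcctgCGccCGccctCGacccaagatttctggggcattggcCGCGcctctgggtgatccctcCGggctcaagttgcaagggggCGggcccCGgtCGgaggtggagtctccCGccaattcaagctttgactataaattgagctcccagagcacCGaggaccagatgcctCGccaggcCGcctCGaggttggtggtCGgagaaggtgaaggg
Ascl2 promoter, chr7:142969215-142969514, minus strand: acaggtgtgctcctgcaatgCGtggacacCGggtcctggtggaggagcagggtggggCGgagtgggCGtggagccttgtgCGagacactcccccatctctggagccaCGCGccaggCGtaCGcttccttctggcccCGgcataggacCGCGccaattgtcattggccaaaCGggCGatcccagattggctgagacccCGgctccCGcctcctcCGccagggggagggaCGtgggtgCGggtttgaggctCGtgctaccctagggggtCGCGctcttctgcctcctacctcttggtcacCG
Igf2 promoter, chr7:142658755-142659054, minus strand: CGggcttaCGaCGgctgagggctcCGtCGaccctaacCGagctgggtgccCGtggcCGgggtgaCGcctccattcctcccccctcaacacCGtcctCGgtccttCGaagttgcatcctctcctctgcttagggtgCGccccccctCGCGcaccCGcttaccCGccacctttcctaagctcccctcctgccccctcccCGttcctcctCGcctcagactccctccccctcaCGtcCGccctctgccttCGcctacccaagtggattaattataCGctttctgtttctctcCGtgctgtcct
Phlda2 promoter, chr7:143502475-143502774, minus strand: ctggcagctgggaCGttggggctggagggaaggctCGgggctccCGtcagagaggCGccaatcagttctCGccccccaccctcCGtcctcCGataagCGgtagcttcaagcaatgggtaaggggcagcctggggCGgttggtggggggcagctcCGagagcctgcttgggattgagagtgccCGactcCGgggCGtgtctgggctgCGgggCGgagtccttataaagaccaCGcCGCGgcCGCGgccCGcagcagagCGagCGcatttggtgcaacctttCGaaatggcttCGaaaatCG
Ppp1r9a promoter, chr6:4903061-4903360, plus strand: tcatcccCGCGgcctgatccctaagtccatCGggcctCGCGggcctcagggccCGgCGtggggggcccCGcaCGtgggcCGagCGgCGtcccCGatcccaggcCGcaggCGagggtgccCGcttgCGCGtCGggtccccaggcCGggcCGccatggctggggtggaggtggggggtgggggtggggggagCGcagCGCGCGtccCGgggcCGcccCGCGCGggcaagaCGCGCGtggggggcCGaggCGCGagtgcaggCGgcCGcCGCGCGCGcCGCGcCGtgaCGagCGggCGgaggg
Igf2r promoter, chr17:12769657-12769956, minus strand: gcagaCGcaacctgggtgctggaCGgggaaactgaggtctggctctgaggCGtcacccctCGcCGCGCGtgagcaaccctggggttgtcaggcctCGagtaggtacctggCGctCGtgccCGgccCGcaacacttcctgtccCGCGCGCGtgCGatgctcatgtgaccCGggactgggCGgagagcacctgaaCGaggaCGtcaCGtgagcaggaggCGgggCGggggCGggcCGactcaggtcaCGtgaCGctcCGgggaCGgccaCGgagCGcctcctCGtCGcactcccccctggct
The 6 windows under a peak hold from 23 CG (Ascl2) to 45 CG (Grb10). As many CG were held by 21.7% of all windows in the table for Ascl2 and by 1.95% for Grb10. The 2 windows at genes without a peak hold 48 CG (Ppp1r9a) and 34 CG (Igf2r), reached by 1.23% and 7.78% of all windows. A dense promoter window thus also occurs among the members without a called peak.

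Of the 34 members, 11 had a peak (32.4%, exact 95% interval 17.4 to 50.5), against 13.1% of all protein-coding genes by the same rule. The difference was not tested, and the members were chosen with earlier results of these data known. The interval covers counting error only and treats members as independent, although neighbours share a peak. Counting peaks within 2.5 kb of a gene end only, which favours long genes less, the share was again 11 of 34, against 11.7% of all genes. A peak overlapped the gene itself in 10 members (29.4%, 15.1 to 47.5), against 12.3% of all genes. The member that drops out is Slc22a18, whose peak lies on its neighbour Phlda2. Among members shorter than 20 kb, 6 of 14 had a peak, against 10.3% of all genes of such length, and among longer members 5 of 20, against 16.4%.

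**Figure D1:**
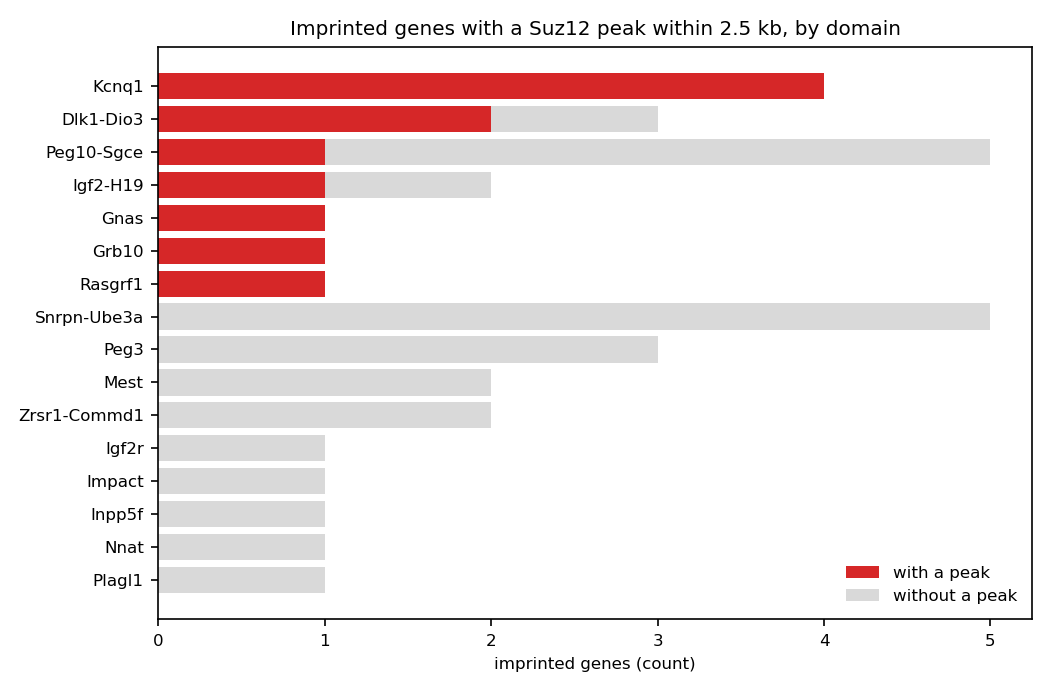
Number of imprinted genes per imprinted domain (horizontal axis, count), with genes that had a Suz12 peak overlapping or within 2.5 kb in red and those without in grey, in the wild-type 72 h library. All 4 genes listed for the Kcnq1 domain had a peak by this rule, Slc22a18 only through the peak on its neighbour Phlda2. Of the 16 domains, 9 had none at a listed gene.

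The Kcnq1 domain on chromosome 7 held Suz12 at each of its 4 members, through 3 peaks. These 4 genes are expressed from the maternal allele, and Cdkn1c and Phlda2 limit growth of the embryo or placenta. Cdkn1c, an inhibitor of cyclin-dependent kinases that restrains growth, lay under a peak of 3148 bp with score 2025 (chr7:143458663-143461810). That peak covered 88.1% of the gene and ran 751 bp past its upper-coordinate end. Ascl2, a transcription factor needed for the spongiotrophoblast of the placenta, had a peak of 3302 bp with score 2069 (chr7:142966915-142970216). It covered 96.2% of Ascl2, including the transcript start. Phlda2, a restrainer of placental growth, lay wholly under a peak of 2162 bp with score 1463 (chr7:143501215-143503376). The same peak began 1881 bp past the end of Slc22a18, a membrane transporter gene, and overlapped no base of it. The annotated start of Slc22a18 lay 7992 bp from the nearest peak. Cdkn1c, Ascl2 and Phlda2 were each covered almost end to end, and the count of Slc22a18 rests on a peak over its neighbour. These 3 covered genes are short, at 2721, 2443 and 1601 bp, and the share covered depends on gene length.

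Suz12 was also found between the genes of the Kcnq1 domain. Peaks with score 352 (chr7:143437315-143438416) and 1399 (chr7:143444632-143446697) lay between Kcnq1 and Cdkn1c, 10265 bp from Kcnq1 and 11642 bp from Cdkn1c. A low-scoring peak with score 214 (chr7:143464594-143465797) lay 3535 bp beyond Cdkn1c, past the 2.5 kb limit, and overlapped the non-coding gene Gm33663. Kcnq1, a potassium channel gene, had a peak with score 368 at its lower-coordinate end. No peak lay at Kcnq1ot1, the non-coding RNA that spreads silencing over this domain, nor at Tssc4, Cd81, Tspan32, Th, Nap1l4, Tnfrsf23 or Osbpl5. The span from Th to Osbpl5 held 7 peaks in 869 kb, or 8.05 per Mb, against 1.29 per Mb over the stretch searched in the genome.

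Elsewhere on chromosome 7, Igf2 held 2 peaks inside the gene. Igf2 encodes a fetal growth factor expressed from the paternal allele. The higher-scoring peak, 3548 bp with score 1508 (chr7:142658183-142661730), covered 22.1% of the gene. It contained 2 of the 4 transcript starts listed for Igf2, those with 24 and 14 CG in their windows. The other 2 starts lay outside it. The start with 7 CG was 687 bp from the peak, and the outermost start, with 2 CG, was 1827 bp from the second peak. That second peak, 1707 bp with score 674 (chr7:142663283-142664989), contained no listed start. Both peaks also lay over the non-coding gene Igf2os, which is annotated across part of Igf2, and which of the genes they belong to cannot be told apart. Ins2, an insulin gene next to Igf2, had no peak and lay 13667 bp from the nearest. H19, the maternally expressed non-coding RNA of this domain, had none.

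**Figure D2:**
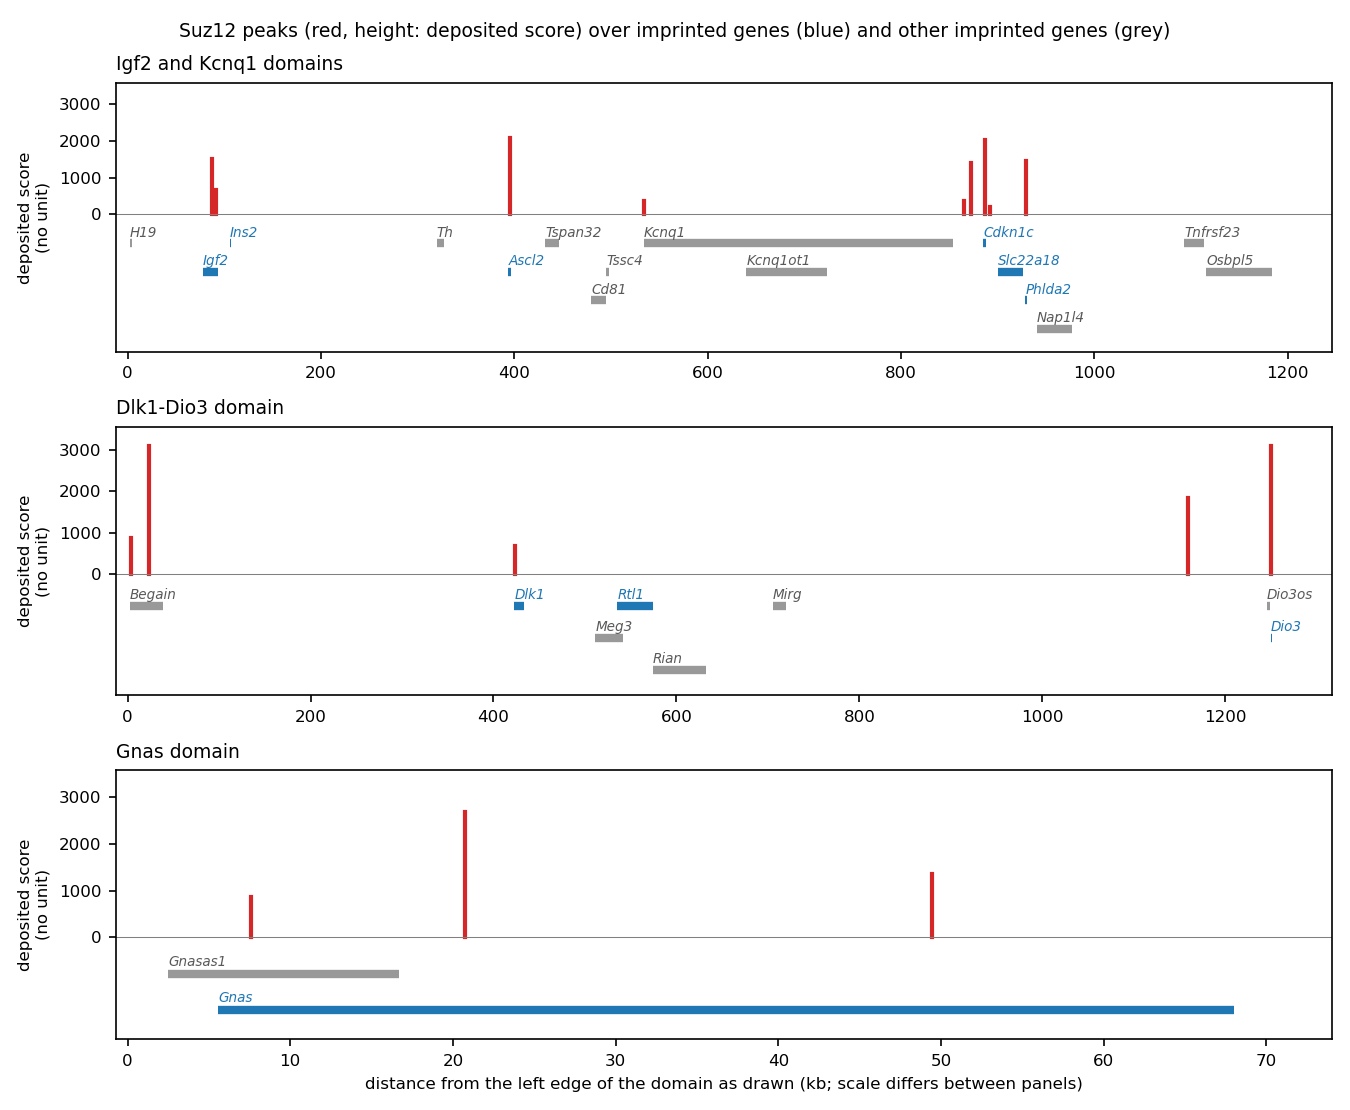
Suz12 peaks (red, height is the authors' deposited score, vertical axis without unit) over the examined genes (blue) and other imprinted genes (grey) that lie in the Igf2 and Kcnq1, Dlk1-Dio3 and Gnas domains, against distance in kb from the left edge as drawn. Peaks sat at Igf2, Ascl2, Cdkn1c and Phlda2 in the top panel, at the outer genes Begain and Dio3 with a score of 3100 in the middle panel, and at 3 places within Gnas in the bottom panel.

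In the Dlk1-Dio3 domain on chromosome 12, the widest Suz12 peak lay over Dio3. Dio3 encodes the deiodinase that inactivates thyroid hormone, and its peak was also the widest at any of the 34 members, 7023 bp with score 3100 (chr12:110276468-110283490). Of all peaks in the list, 3.17% were as wide. The peak covered the whole of Dio3, part of the long non-coding gene Dio3os and the microRNA gene Mir1247. Dlk1, a delta-like membrane protein that restrains fat cell formation, had a narrow peak of 1593 bp with score 678 (chr12:109452643-109454235). This peak covered 14.7% of Dlk1 and its listed start. Rtl1, a placental gene derived from a retrotransposon, had no peak and lay 111 kb from the nearest. Dlk1, Rtl1 and Dio3 are expressed from the paternal allele, while the non-coding genes Meg3, Rian and Mirg, expressed from the maternal allele, had no peak.

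The Dlk1-Dio3 domain carries a large array of microRNAs, and of its 58 annotated hairpins 1, Mir1247, lay in a peak, against 3.08% of 1005 hairpins in the genome, so the share was not above that background. Its 2 mature products are shown because their hairpin lies within the widest peak at any member, with the seed (bases 2 to 8) in capitals, from RefSeq.
mmu-miR-1247-5p, chr12:110278094-110278115, minus strand: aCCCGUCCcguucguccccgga
mmu-miR-1247-3p, chr12:110278058-110278078, minus strand: cGGGAACGucgagacuggagc
Their seeds differ. The hairpin, on the strand opposite to Dio3, ran from 110278048 to 110278129, below the Dio3 start at 110279230. At the other flank of the domain, Begain, a gene of synapses, held 2 peaks, with scores 3100 (chr12:109051613-109054717) and 880 (chr12:109032724-109034964). A further peak with score 1846 (chr12:110186977-110189894) lay 89336 bp from Dio3, with no gene of the table within 2.5 kb.

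Grb10, Rasgrf1 and Gnas, whose products act inside signalling pathways, held Suz12 and are grouped here for description only. Other members with a part in signalling, such as the receptor gene Igf2r and the phosphatase gene Inpp5f, had no peak. Grb10 is an adaptor that dampens insulin and growth factor receptor signalling, expressed from the maternal allele in most tissues and from the paternal allele in neurons. It had a peak of 4468 bp with score 3100 (chr11:12035196-12039663) across its upper-coordinate end. This peak overlapped the Grb10 start window with 45 CG, the densest window under any member's peak. A lower-scoring peak of 1822 bp with score 290.2 (chr11:12025285-12027106) lay 10322 bp inside the gene, 865 bp from the second listed start, whose window has 9 CG. Rasgrf1, an exchange factor that activates Ras in neurons and is paternally expressed, had a single peak of 4219 bp with score 3100 (chr9:89907309-89911527). That peak lay over the lower-coordinate end and its start, and reached 1.72% of this long gene.

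Gnas, which encodes the stimulatory G protein subunit coupling hormone receptors to cyclic AMP, held 3 peaks, more than any other member. The locus makes several transcripts from separate promoters, some maternal, some paternal and some from both alleles. The first peak, 3641 bp with score 867 (chr2:174284531-174288171), began 211 bp inside the lower-coordinate end and also lay over the antisense gene Gnasas1, known as Nespas. The second, 3426 bp with score 2667 (chr2:174297778-174301203), contained no start listed for Gnas and lay within 2.5 kb of the upper-coordinate end of Gnasas1. The third, 2779 bp with score 1344 (chr2:174326811-174329589), contained 2 listed starts with 27 and 28 CG. The start with the densest window of Gnas, with 40 CG, lay 417 bp beyond the edge of the third peak. Of the 4 starts listed for Gnas, 2 were thus in a peak, and the other 2 lay within 2.5 kb of a peak edge.

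**Figure D3:**
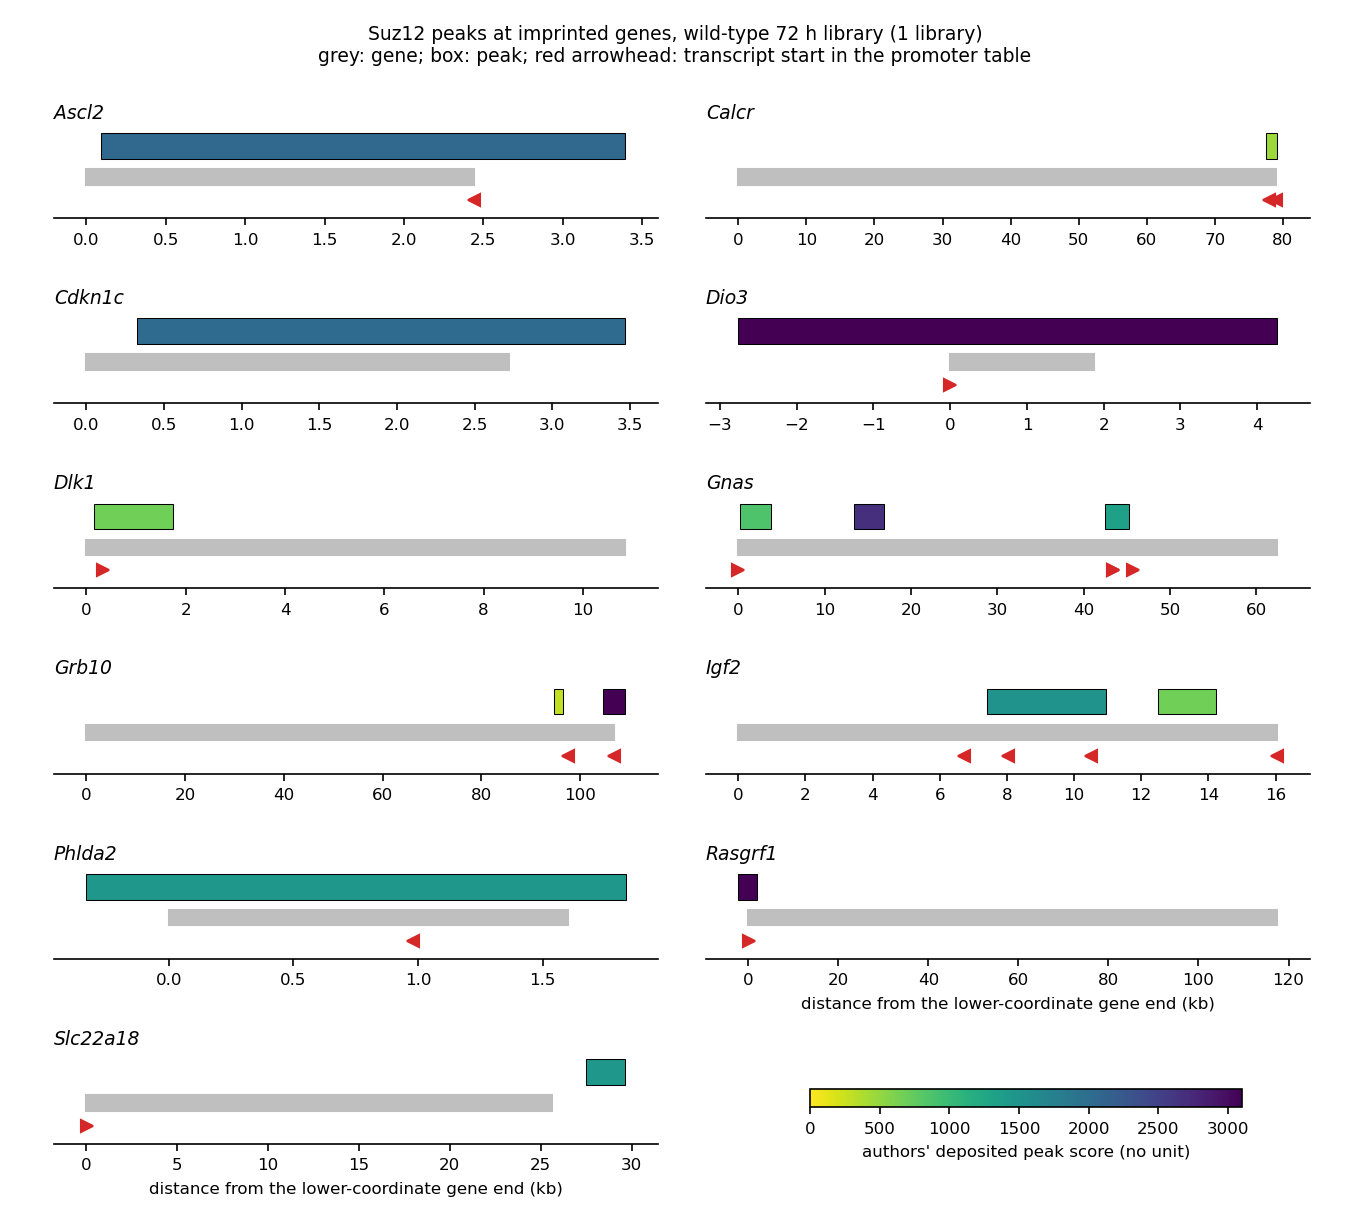
Suz12 peaks (boxes, coloured by the authors' deposited score) along the 11 imprinted genes with a peak (grey bars), against distance in kb from the lower-coordinate gene end. Red arrowheads are transcript starts in the RefSeq promoter table, pointing in the direction of transcription, and Cdkn1c has no entry in that table. Peaks covered 88.1% to 100% of Cdkn1c, Ascl2, Phlda2 and Dio3, which are 1601 to 2721 bp long. They covered 1.72% to 32.7% of the other genes overlapped, all longer, and the box near Slc22a18 lies beyond the gene.

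The Peg10-Sgce domain on chromosome 6 had a peak at 1 of its 5 members, and it stood at the edge of the domain. Calcr, the calcitonin receptor gene, had a peak of 1656 bp with score 453 (chr6:3763166-3764821), the lowest best score among the 11 members. It contained both listed starts of Calcr, whose windows have 29 and 4 CG, and overlapped the non-coding gene Gm33576. Peg10, a retrotransposon-derived gene needed for the placenta, and Sgce, a sarcoglycan, lay 965 kb and 910 kb from the nearest peak. Ppp1r9a, a neuronal actin-binding regulator of protein phosphatase, was 560 kb away although its window was the most CG-rich of all members, and Asb4, a ubiquitin ligase adaptor, was 292 kb away. Casd1, Tfpi2, Pon1, Pon2, Pon3 and Pdk4 in the same domain had no peak.

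No member of the Snrpn-Ube3a, Peg3, Mest, Igf2r, Zrsr1-Commd1, Plagl1, Impact, Nnat or Inpp5f domains had a peak. In the Snrpn-Ube3a domain, which underlies the Prader-Willi and Angelman syndromes in humans, a peak with score 313 (chr7:62463213-62464640) lay on Peg12 at the flank. It was 43.1 kb from Mkrn3, 81.6 kb from Magel2 and 113 kb from Ndn. Snrpn, a splicing protein gene, lay 2010 kb from it. Ube3a, a ubiquitin ligase gene, lay 1640 kb from its own nearest peak, which is a different one on the other side of the domain (score 622, chr7:57590453-57592449). That domain held 1 peak in 3810 kb, or 0.262 per Mb. At the zinc-finger genes Peg3 and Zim1 and their neighbour Usp29, of a ubiquitin protease family, the nearest peak was 484 to 540 kb away. Igf2r, the receptor that clears Igf2, lay 174 kb from a peak on its neighbour Slc22a3 (score 996, chr17:12506390-12508017), and Airn, the non-coding RNA of that domain, had none.

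The remaining members without a peak lay 28.9 to 1110 kb from the nearest one. Copg2, a coat protein of transport vesicles, lay 60.6 kb and Mest, a hydrolase-like growth gene, 209 kb from a peak on Klf14, a maternally expressed transcription factor (score 1701, chr6:30957383-30959737). Plagl1, a growth-regulating zinc-finger factor, lay 28.9 kb from a peak of score 483. Commd1, which takes part in copper handling, lay 39.8 kb and Zrsr1, the splicing gene inside it, 112 kb from a peak of score 1481. Inpp5f, a phosphatase, Nnat, a membrane protein of the developing brain, and Impact, a regulator of translation, were 192, 351 and 1110 kb away. Over the 23 members without a peak the distance to the nearest peak ran from 13.7 to 2010 kb, with a median of 209 kb. No member fell between the 1881 bp of Slc22a18, just inside the limit, and the 13667 bp of Ins2, just outside.

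Peaks at the members ranked mostly in the upper part of the list in score and width. Of the 14, 12 scored above the median of all peaks and 10 were wider than the median peak. Their median score was 1485, against 572 for all peaks, and their median width 3225 bp, against 1849 bp. All 14 overlapped a protein-coding gene, while the list also holds peaks away from genes. A comparison with peaks at protein-coding genes alone was not made. At Grb10, Rasgrf1 and Dio3 the score reached 3100, a value reached or passed by 10.5% of all peaks. The lower-scoring Grb10 peak and the Calcr peak scored below the median of the list.

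**Figure D4:**
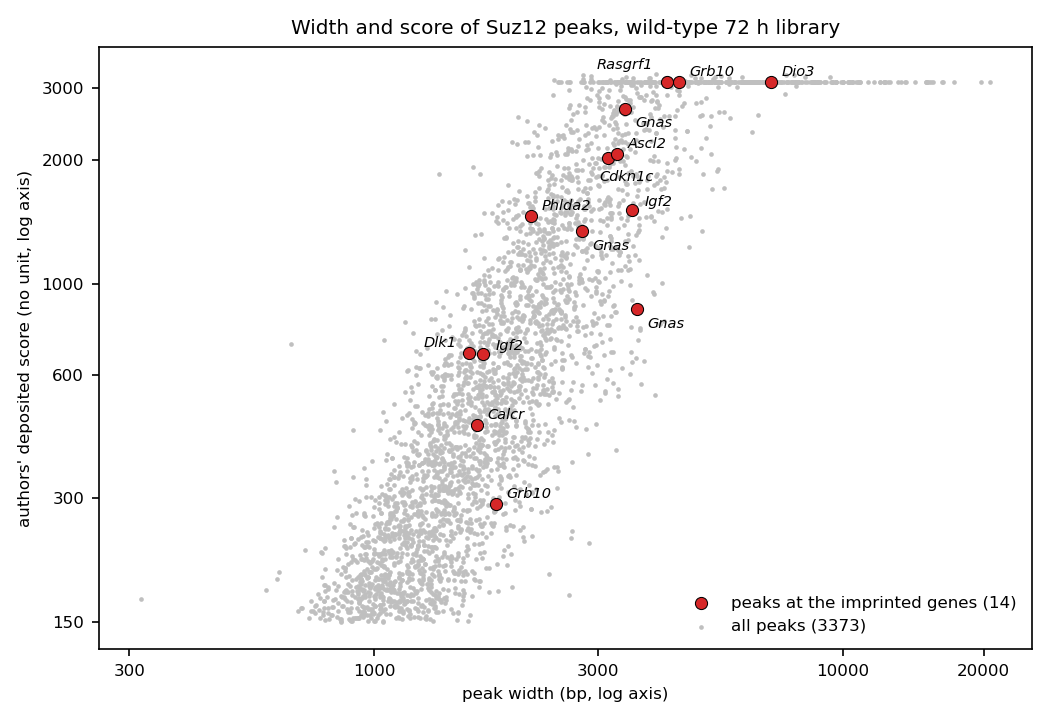
Peak width in bp and the authors' deposited score without unit, both on log axes, for the 14 peaks at imprinted genes (red) and all 3373 peaks (grey) of the wild-type 72 h library. The Dio3 peak was the widest of the 14 at 7023 bp, and the scores of Rasgrf1, Grb10 and Dio3 lie on the row of peaks at 3100.

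Members whose product comes from the maternal allele held Suz12 at 6 of 13 genes, namely Grb10, Calcr and the 4 of the Kcnq1 domain. Members expressed from the paternal allele held it at 4 of 20, namely Igf2, Dlk1, Dio3 and Rasgrf1, and Gnas was counted with neither. By the same rule 13.1% of all protein-coding genes had a peak. Slc22a18, 1 of the 6, was counted through the peak on Phlda2, which does not overlap it. The allele of expression was assigned from general knowledge and differs by tissue for some genes. The 6 maternal genes rest on 6 peaks in 3 domains, the paternal ones on 5 peaks in 3 domains, so these counts stand on few domains and were not tested.

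CpG content was set beside Suz12 at the listed transcript starts. RefSeq windows were matched for 28 of the 34 members, 44 windows in all, and Cdkn1c, Ins2, Peg10, Sgce, Rtl1 and Impact had no entry. A peak overlapped 12 of the 44 windows, in 9 members, against 6.80% of 32619 windows in the genome. The 12 overlapped windows held a median of 25.5 CG (4 to 45), the 32 others a median of 14 CG (2 to 48). Taking instead starts within 2.5 kb of a peak, the 17 such windows had a median of 24 CG and the 27 others 15 CG. Over all windows the medians were 21 CG in those overlapped and 6 CG in those not overlapped. The ranges of the members overlap widely, with Calcr and Dlk1 windows of 4 and 9 CG partly under peaks that contain their starts.

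Windows with at least 20 CG numbered 16, in 14 members, and a peak overlapped 9 of them in 8 members, against 14.0% of the 8699 such windows in the genome. The 8 members were Ascl2, Calcr, Dio3, Gnas, Grb10, Igf2, Phlda2 and Rasgrf1. The 6 members with such a window and no peak were Copg2, Igf2r, Plagl1, Ppp1r9a, Ube3a and Zim1. Of the 28 windows with fewer CG, 3 were overlapped, at Calcr, Dlk1 and Igf2, against 4.17% in the genome. Windows of the same gene can overlap each other, and a window without a peak may lie beside one, as at Gnas.

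**Figure D5:**
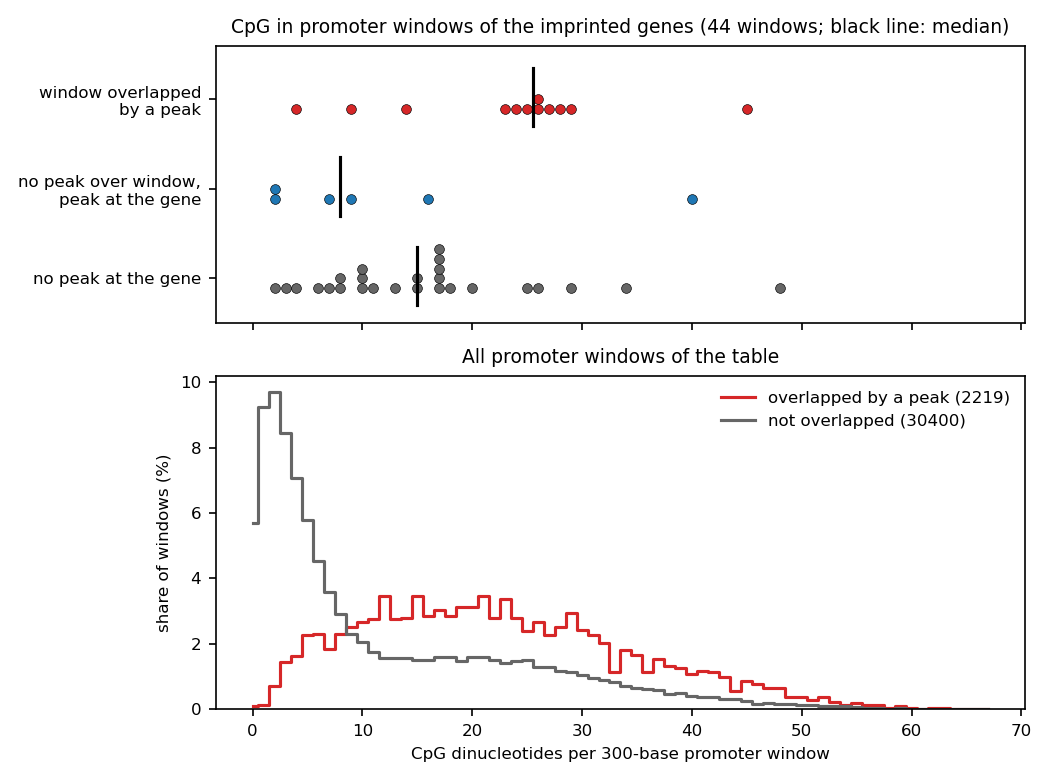
CG dinucleotides per 300-base promoter window (horizontal axis) for the 44 windows of 28 imprinted genes by Suz12 peak (top, points are windows, black lines medians) and for all 32619 windows of the table (bottom, share of windows in %). The member medians are 25.5 CG under a peak, 8 CG for windows outside the peaks of genes with a peak, and 15 CG at genes without a peak.

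A second list of imprinted genes, many of them neighbours of the members, held Suz12 at 11 of 48 protein-coding genes (22.9%, 12.0 to 37.3), against the same 13.1% of all protein-coding genes. This list, too, was drawn up with earlier results of these data known, and the difference was not tested. The highest scores were 3100 at Begain and at Kcnk9, a potassium channel gene (chr15:72544927-72549892), followed by 2332 at Sfmbt2, a Polycomb-family gene of the placenta (chr2:10369457-10372767), and 1701 at Klf14. Cobl, an actin nucleator next to Grb10, had a peak of score 1284 and Slc22a3, an organic cation transporter, of score 996. Scores at Kcnq1, Peg12, Ampd3, Zdbf2 and Smoc1 ran from 159.7 to 368. Of 15 non-coding genes on this list, 2 had a peak, against 3.51% of all genes that are not protein-coding, namely Dio3os and Nespas, and both share theirs with a member.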

How the data were processed

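Chromatin immunoprecipitation with an antibody against Suz12, followed by sequencing, gave 1 peak list, that of the wild-type library at 72 h. Per the submitters' processing notes, Bowtie, MACS and build GRCm38 (mm10) were used; their versions and settings, any pooling and the control library were not given in the sources used here. For each peak, the deposited score is the authors' own, on a scale not stated in the file. Depth is unknown, and intervals cover counting error only.

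Peaks were read with 1-based starts and set against the gene ends and promoter windows of RefSeq tables for GRCm38.p6, with Python 3.11.15, pandas 2.3.3, numpy 2.4.6 and scipy 1.17.1; figures used matplotlib 3.10.9. The gene table gives no strand or exons, so exons, introns and untranslated regions were not told apart. Overlap counting was tested on simulated data. Other distances, score limits and overlap rules were tried. Shares carry exact Clopper-Pearson 95% intervals. All members with a peak and all other imprinted genes with a peak are named; printed windows follow the score and CG ranks stated with them. Domain spans run 2.5 kb past the outermost listed genes. The members and lists were chosen with earlier results of these data known.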

Additional observations from a re-analysis of the deposited data

How the results depend on the processing

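Of 32 alternative values for 7 results, 31 stayed within 1.5 times the main value and 1 moved. Of the 31, 1 changed only the background, which cannot alter the count of members with a peak. Some alternatives also repeat another of the 7 results. Requiring overlap gives the overlap count itself, and requiring a gene end gives the gene-end count. The 32 values are therefore not independent of each other. The limit was applied to the values themselves, while the share of all genes also shifts with the setting. The number of other imprinted protein-coding genes with a peak was 6 instead of 11 when peaks under the list's median score were dropped, a setting that also lowers the share of all protein-coding genes to 7.24%. The count of members with a peak was 10 with overlap required, within 1 kb of the gene, or when the peak had to lie nearer to the member than to any other protein-coding gene, and Slc22a18 was the member lost with overlap required and within 1 kb. It was 11 within 5 kb and 10 without peaks under the median score, where Calcr dropped out, and 11 with at least double the lowest score. The share of all protein-coding genes was 12.3% with overlap required, 12.6% within 1 kb and 14% within 5 kb. It was 7.24% without peaks under the median score and 10.1% with at least double the lowest score. The lowest count, 9 of 34, came when the peak had to lie within 1 kb of a gene end, when it had to put 50% of itself on the gene or cover 50% of it, or when overlap was required and peaks under the median score were dropped. For these settings, and for the rule of the nearest gene, no share of all genes is given, so those counts have no background. With every kind of gene as background, 7.69% had a peak. The median of member windows with a start within 2.5 kb of a peak was 24 CG, and 25.5 CG in windows overlapped by a peak. No paired analysis was possible because each group has 1 library, and the knockout library was not used. The unknown depth limits every count of genes without a peak, and parental alleles were not separated.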
